A study of Homo sapiens with 25 samples.

Results

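The chromatin around 5 genes of retinoid signalling was described in NB4 cells: the 3 retinoic acid receptor genes RARA, RARB and RARG, the gene of their partner RXRA, and PML. Each gene was represented by a fixed window of the human genome build hg18: chr17:35.70-35.79 Mb for RARA, chr3:25.43-25.63 Mb for RARB, chr12:51.88-51.93 Mb for RARG, chr9:136.34-136.49 Mb for RXRA and chr15:72.06-72.14 Mb for PML. Every deposited peak that overlapped a window by at least 1 base was taken, which gave 816 of the 918840 peaks in 23 peak lists. RXRA held 350 of these peaks, RARA 208, PML 103, RARG 94 and RARB 61. The windows were 150, 90, 80, 50 and 200 kb long in that order, 570 kb in all.

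NB4 is an established human acute promyelocytic leukaemia line that carries a fusion of PML and RARA. ChIP-seq, in which DNA bound to a chosen protein or histone mark is pulled down and sequenced, was run after 24 h of treatment. The conditions were MC_2580, an LSD1 inhibitor (its dose is not given in the labels), retinoic acid (RA) at 0.01 µM, RA at 1 µM, the combination of MC_2580 and RA at 0.01 µM, and DMSO, the vehicle. The histone marks H3K4me1, H3K4me2, H3K4me3 and H3K27ac were mapped in all 5 conditions, LSD1 in MC_2580 and DMSO, and GFI1 in untreated cells. There was a single library for every antibody in every condition, and the differences below therefore have no replicate check and no test. For H3K4me3 in the combination the labels disagree on the RA dose, with 1 µM in the title and 0.01 µM in the field for treatment. The treatment field decided its group, and its RA dose is in doubt wherever H3K4me3 values of the combination are given. Reads from the normal and the rearranged copies of RARA and PML cannot be told apart in their windows.

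Retinoic acid receptors are nuclear receptors that bind DNA as heterodimers with an RXR at direct repeats of a short half-site. Without ligand they hold corepressors on their target genes, and RA exchanges these for coactivators. The PML-RARA fusion protein acts as a strong repressor at such sites and is the driver of acute promyelocytic leukaemia, in which RA at high doses releases the block of granulocytic differentiation. LSD1 (KDM1A) removes methyl groups from mono- and dimethylated H3K4, and GFI1 is a zinc finger repressor that recruits LSD1 to chromatin. H3K4me1 is typical of enhancers, H3K4me3 of active promoters, H3K4me2 of both, and H3K27ac of active enhancers and promoters.

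RARB is the classic gene with a retinoic acid response element in its own promoter. Of its 4 promoter sequences, the only 1 with a match is printed beside the 1 of RARG, where no such element was matched. Both come from RefSeq on GRCh38.p14 and run from 250 bases before to 50 bases after an annotated start. The RARB sequence is chr3:25428013-25428312 on the plus strand. The RARG sequence is chr12:53232160-53232459 on the minus strand. Capitals mark a direct repeat with 5 bases between its half-sites (DR5), which begins 53 bases and ends 37 bases before the RARB start.
RARB promoter: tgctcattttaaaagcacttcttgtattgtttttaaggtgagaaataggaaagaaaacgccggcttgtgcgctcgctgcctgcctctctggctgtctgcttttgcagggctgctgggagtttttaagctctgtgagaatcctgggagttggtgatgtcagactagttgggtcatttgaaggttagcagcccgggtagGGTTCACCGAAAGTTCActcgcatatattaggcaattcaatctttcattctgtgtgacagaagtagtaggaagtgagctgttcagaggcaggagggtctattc
RARG promoter: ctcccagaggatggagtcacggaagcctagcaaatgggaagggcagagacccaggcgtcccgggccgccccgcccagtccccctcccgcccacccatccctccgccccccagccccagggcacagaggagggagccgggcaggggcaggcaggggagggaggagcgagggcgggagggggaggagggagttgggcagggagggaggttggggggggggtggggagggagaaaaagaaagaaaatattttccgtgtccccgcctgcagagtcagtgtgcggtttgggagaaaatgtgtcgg
A half-site was AGGTCA, or its variants with G for the opening A, T for the G before the closing TCA, or both, on either strand, and a half-site could belong to more than 1 repeat. A DR5 stood in 31 of the 35116 RefSeq promoter sequences of this length (0.0883%), a DR2, with 2 bases between half-sites, in 14 (0.0399%) and a DR1, with 1 base between, in 46 (0.131%). Among the 10 sequences of 4 of these genes, 1 held a DR5 and none a DR2 or DR1, and PML was not among the genes matched. A match describes letters, not a bound site, and the GRCh38.p14 positions were not placed on the hg18 peaks.

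The deposited lists ranged from 12562 peaks for LSD1 in DMSO to 72810 for H3K4me1 in the combination. A list's length moves with the depth of its library and with the caller, and the depth is unknown. The covered bases of the whole lists, relative to DMSO, are therefore given beside those of the windows. The LSD1 lists keep 26.1% (MC_2580) and 24.7% (DMSO) of the peaks that their numbering counts, with lowest scores of 357 and 234.04, and the labels do not say how they were filtered. The score in a list is the authors' own peak value and is used here to describe or rank a peak within its list. It also serves as a cut-off where a minimum score is named, with the same value for every list compared. In the H3K4me1 list of the combination 4.21% of peaks reached 3100 and 0.332% reached 3111, so many peaks are tied at 3100. RefSeq places RARA between CDC6 and GJD3, RARB between THRB and TOP2B, RARG between ITGB7 and LOC122455340, RXRA between WDR5 and COL5A1, and PML between STOML1 and GOLGA6A. No hg18 gene models were used, so peaks are given by position and were not assigned to an exon, intron or gene.

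Over the 5 windows together, H3K4me3 was above DMSO in all 4 treatments, as it was in the whole lists. H3K4me3 covered 96.8 kb with MC_2580, 97.1 kb with RA 0.01 µM, 89.0 kb with RA 1 µM and 88.7 kb in the combination, against 62.5 kb in DMSO. These are 1.55, 1.55, 1.42 and 1.42 times DMSO, where the whole H3K4me3 lists were 1.57, 1.50, 1.33 and 1.32 times DMSO. H3K27ac covered 158 kb with MC_2580, 272 kb with RA 0.01 µM, 204 kb with RA 1 µM and 230.6 kb in the combination, against 195 kb in DMSO. Its ratios to DMSO were 0.81, 1.4, 1.05 and 1.18, where the whole lists gave 0.75, 1.56, 1.12 and 1.17. H3K4me1 was at 0.99, 0.76, 0.88 and 1.00 times DMSO, where the whole lists gave 0.99, 0.79, 0.88 and 1.04. H3K4me2 was at 1.10, 1.00, 1.08 and 1.18 times, where the whole lists gave 1.05, 0.94, 0.92 and 1.08, so that with RA 1 µM the windows stood above DMSO and the whole list below it. A bulk library does not tell more marked cells from more mark per cell.

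**Figure D1:**
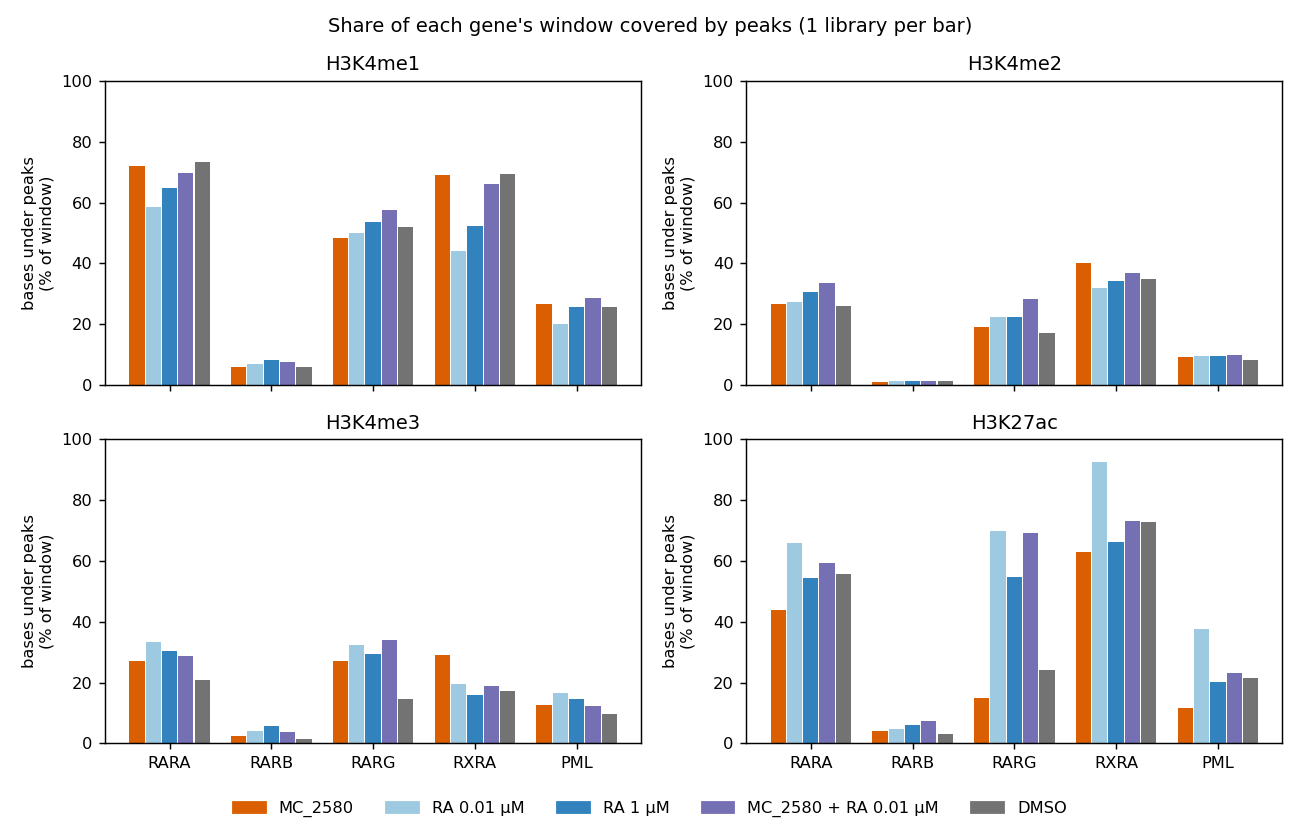
Bases under peaks as a share of each gene's window (y axis, %), in 1 panel per mark; bars stand for MC_2580, RA 0.01 µM, RA 1 µM, the combination and DMSO, with 1 library each and no error bar. The RARG window stands at 69.8%, 54.7% and 69.2% for H3K27ac in the RA-containing conditions, against 24.1% in DMSO, while RARB has the lowest coverage of each mark.

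The windows differed widely in how much of them was marked at the start. In DMSO cells H3K27ac covered 72.8% of the RXRA window, 55.7% of RARA, 24.1% of RARG, 21.5% of PML and 3.07% of RARB. H3K4me1 in DMSO covered 73.2% of RARA, 69.3% of RXRA, 51.8% of RARG, 25.7% of PML and 5.92% of RARB. RARA and RXRA were thus broadly marked before any treatment, and RARB was the least marked window for all 4 marks.

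Peaks were next counted as gained, where a treated peak met no DMSO peak, or lost, where a DMSO peak met no treated peak. For H3K4me1, 3 of 31 peaks were gained with MC_2580 (8.54% of the whole list), 2 of 45 with RA 0.01 µM (11.7%), 4 of 47 with RA 1 µM (14.2%) and 8 of 39 in the combination (21.9%). Of 30 H3K4me1 peaks in DMSO, 3 were lost with MC_2580 (13.1% of the whole list), 4 with RA 0.01 µM (19.5%), 4 with RA 1 µM (14.0%) and 3 in the combination (7.79%). For this enhancer mark the whole-list share lay inside the exact 95% interval of each of these shares.

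For H3K4me2, 20 of 69 peaks were gained with MC_2580 (22.3% of the whole list), 9 of 55 with RA 0.01 µM (14.3%), 12 of 64 with RA 1 µM (22.1%) and 14 of 50 in the combination (23.2%). Of 51 H3K4me2 peaks in DMSO, 6 were lost with MC_2580 (11.0%), 10 with RA 0.01 µM (19.7%), 8 with RA 1 µM (19.5%) and 10 in the combination (14.4%). The peaks gained with MC_2580 were 12 of 38 in RXRA and 6 of 18 in RARA.

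For H3K4me3, 3 of 22 peaks were gained with MC_2580 (33.5% of the whole list), 4 of 24 with RA 0.01 µM (29.2%), 5 of 25 with RA 1 µM (25.6%) and 4 of 25 in the combination (26.6%). Of 24 H3K4me3 peaks in DMSO, 1 was lost with MC_2580 (2.20%), 1 with RA 0.01 µM (3.97%), 2 with RA 1 µM (6.12%) and 1 in the combination (6.29%). Most H3K4me3 peaks of each treatment thus met a DMSO peak.

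For H3K27ac, 1 of 24 peaks was gained with MC_2580 (11.2% of the whole list), 11 of 33 with RA 0.01 µM (53.9%), 7 of 37 with RA 1 µM (33.3%) and 7 of 34 in the combination (37.1%). Of 32 H3K27ac peaks in DMSO, 14 were lost with MC_2580 (35.0%), 3 with RA 0.01 µM (18.3%), 9 with RA 1 µM (20.9%) and 7 in the combination (21.2%). The share gained with RA 0.01 µM, 33.3% (exact 95% binomial interval 18.0% to 51.8%, which covers counting error only), lay below the 53.9% of its list. The median width of those 33 peaks was 4624 bases, against 2464 bases in the whole list. The part of peak width in that share was not tested. Over the 34 gained and lost shares of the marks and LSD1, the whole-list share lay inside the window's interval in 32.

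Since 1 long peak can join many places into 1 region, single bases were also sorted by the conditions that cover them, a measure chosen after the peak counts were seen. Of all bases under any peak of a mark, those covered in the 3 RA-containing lists and in neither MC_2580 nor DMSO made up 6.58% for H3K4me3 in the 5 windows (2.31% of the whole lists). The same share was 8.25% for H3K27ac (6.41%), 3.49% for H3K4me2 (2.02%) and 1.97% for H3K4me1 (2.15%). RARG held 30.6% for H3K27ac, the largest value of the 5 windows, and RARB held 24.1% for H3K4me3. RARG and RARA followed for H3K4me3 with 10.4% and 10.2%, while RXRA had 0% for H3K4me3 and 5.07% for H3K27ac. With a minimum score of 100 the RARA value for H3K4me3 was 5.43%, and with peaks counted by their centre the RXRA value for H3K27ac was 2.20%. RARB held 8.55% for H3K27ac, and 13.2% with the lists cut to equal length. Bases covered in DMSO and MC_2580 but in none of the 3 RA-containing lists came to 2 in all for H3K27ac, or 0.000655%, where the whole lists had 1.69%. For H3K4me1 they came to 8564, or 3.33% (3.58% of the whole lists), above the 1.97% found in the RA-containing lists only. For H3K4me2 they came to 2605, or 2.02% (2.49%), and for H3K4me3 to 803, or 0.665% (0.512%).

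**Figure D2:**
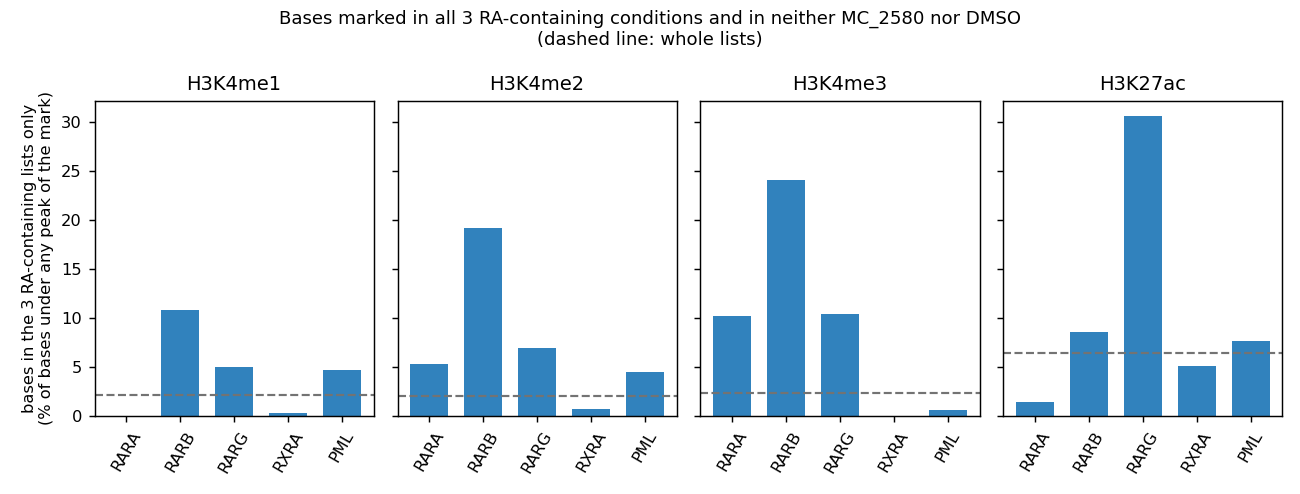
Share of bases (y axis, % of bases under any peak of the mark) covered in all 3 RA-containing lists and in neither MC_2580 nor DMSO, by gene and mark; the dashed line is the share over the whole lists. RARG stands out for H3K27ac at 30.6% and RARB for H3K4me3 at 24.1%.

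Whole regions of this kind were few. After overlapping peaks of a mark were joined across its 5 lists, 3 of 33 H3K27ac regions were called in the 3 RA-containing lists only (5.44% of all regions of the mark), 1 of 24 for H3K4me3 (1.85%), 2 of 60 for H3K4me2 (1.97%) and 1 of 31 for H3K4me1 (3.66%). The H3K27ac regions lay in RARB, RARG and PML. Regions that had a DMSO peak but covered at least 3 times as many bases in each RA-containing list numbered 2 of 19 for H3K4me3 (0.627% of such regions in the whole lists) and 1 of 19 for H3K27ac (0.914%). These were in RARB and RARG for H3K4me3 and in RXRA for H3K27ac, and this length rule too was chosen after the values were seen. The DMSO peaks of all 3 scored under 100, so a minimum score of 100 leaves them without a DMSO peak.

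RARA encodes the receptor that is fused to PML in this line and is the main RAR of myeloid cells. Its window was broadly marked in every condition. The widest H3K4me1 peak of the window was the DMSO peak at chr17:35712542-35763919, 51378 bases long and ninth in width among 57630 peaks of its list. The RARA window held 7 H3K4me1 peaks with MC_2580, 11 with RA 0.01 µM, 10 with RA 1 µM and 9 in the combination, against 7 in DMSO, and covered 64.8, 52.7, 58.3 and 62.8 kb, against 65.9 kb. H3K27ac covered 39.3, 59.2, 48.9 and 53.3 kb in the same order, against 50.1 kb in DMSO. Its widest peak was also a DMSO one, chr17:35715810-35750802, 34993 bases long.

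The longest H3K4me3 region of RARA covered more bases in all 4 treatments than in DMSO. The widest peak within chr17:35726545-35745420 was 14889 bases long with MC_2580, 16461 with RA 0.01 µM (chr17:35726545-35743005), 15433 with RA 1 µM and 15280 in the combination, against 8061 in DMSO. DMSO had 2 smaller peaks downstream of it, of 2386 and 1687 bases, and the whole region held 14889, 18773, 17090 and 17662 covered bases, against 12134 in DMSO. Elsewhere in the RARA window H3K4me3 was not above DMSO throughout. It covered 3831 bases in the combination, against 4511 in DMSO, at chr17:35696985-35702017, a region that crosses the window's start on the side of CDC6. At chr17:35752411-35756004 it covered 1656 bases with RA 1 µM, against 1857 in DMSO. The covered H3K4me3 bases of the window were 1.31, 1.61, 1.47 and 1.38 times DMSO, close to the 1.57, 1.50, 1.33 and 1.32 of the whole lists.

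In RARA, 2 places carried H3K4me3 in the RA-containing conditions only. The stretch chr17:35743538-35745194, 1657 bases long, lay under H3K4me3 peaks of the 3 RA-containing conditions and of neither MC_2580 nor DMSO, on top of LSD1 peaks of both lists. The region chr17:35761369-35763658 had H3K4me3 peaks of 1981 bases with RA 0.01 µM, 1720 with RA 1 µM and 1583 in the combination, and none with MC_2580 or in DMSO. An overlapping H3K4me2 region, chr17:35761028-35762734, covered 548 bases with MC_2580, 1331 with RA 0.01 µM, 1621 with RA 1 µM and 1707 in the combination, against 381 in DMSO. Just downstream, H3K4me2 was called in every condition but DMSO at chr17:35762739-35763407 and in the 3 RA-containing conditions only at chr17:35763878-35764540, with lengths of at most 663 and 654 bases. Both H3K4me3 places lay wholly within H3K4me1 peaks of all 5 conditions. H3K27ac covered the downstream one in the 3 RA-containing conditions and in DMSO, and not with MC_2580. A 463-base H3K4me2 peak of DMSO at chr17:35768418-35768880 was also called with MC_2580 (408 bases) and in no RA-containing list. The widest H3K4me2 peak of the window, chr17:35726160-35735015, was 8856 bases long in the combination.

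RARB encodes the receptor that is itself an RA target gene in many cell types. Its window was nearly bare, with 2 to 5 peaks of each mark in a condition, and 1 region between 12.2 and 21.2 kb into the window had longer peaks of all 4 marks in the RA-containing conditions than in DMSO. H3K27ac was called there with RA 0.01 µM (chr3:25443578-25445829, 2252 bases), with RA 1 µM (chr3:25442153-25447777, 5625 bases) and in the combination (chr3:25442591-25447129, 4539 bases), and neither with MC_2580 nor in DMSO. The 3 peaks scored 2589, 3100 and 2595, within the top 11.1%, 13.5% and 13.7% of their lists.

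H3K4me3 at the same place was present in every condition but differed in length. It covered 2323 bases with MC_2580, 5197 with RA 0.01 µM, 8200 with RA 1 µM (chr3:25442983-25451182) and 5018 in the combination, against 1142 in DMSO. These are 2.03, 4.55, 7.18 and 4.39 times DMSO. Within their own lists, the peaks of RA 0.01 µM and RA 1 µM scored 3100, where many peaks are tied and which 36.1% and 33.6% reached. The peak of the combination scored 2436, which 28.0% reached, and the DMSO peak 63.77, which 90.5% reached. Between the RA doses the peak was longer at 1 µM than at 0.01 µM for H3K4me3, H3K27ac and H3K4me1.

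H3K4me1 and H3K4me2 were also longer with RA than in DMSO there. H3K4me1 covered 1903 bases with MC_2580, 4196 with RA 0.01 µM, 6018 with RA 1 µM and 4211 in the combination, against 2102 in DMSO. The H3K4me2 peak was 665 bases long with MC_2580, 1818 with RA 0.01 µM (chr3:25443811-25445628), 1702 with RA 1 µM and 1772 in the combination, against 855 in DMSO. With MC_2580 alone the peak was thus longer than in DMSO for H3K4me3 and shorter for H3K4me1 and H3K4me2. No LSD1 peak lay in the RARB window in MC_2580 or DMSO, among the peaks that those filtered lists hold.

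**Figure D3:**
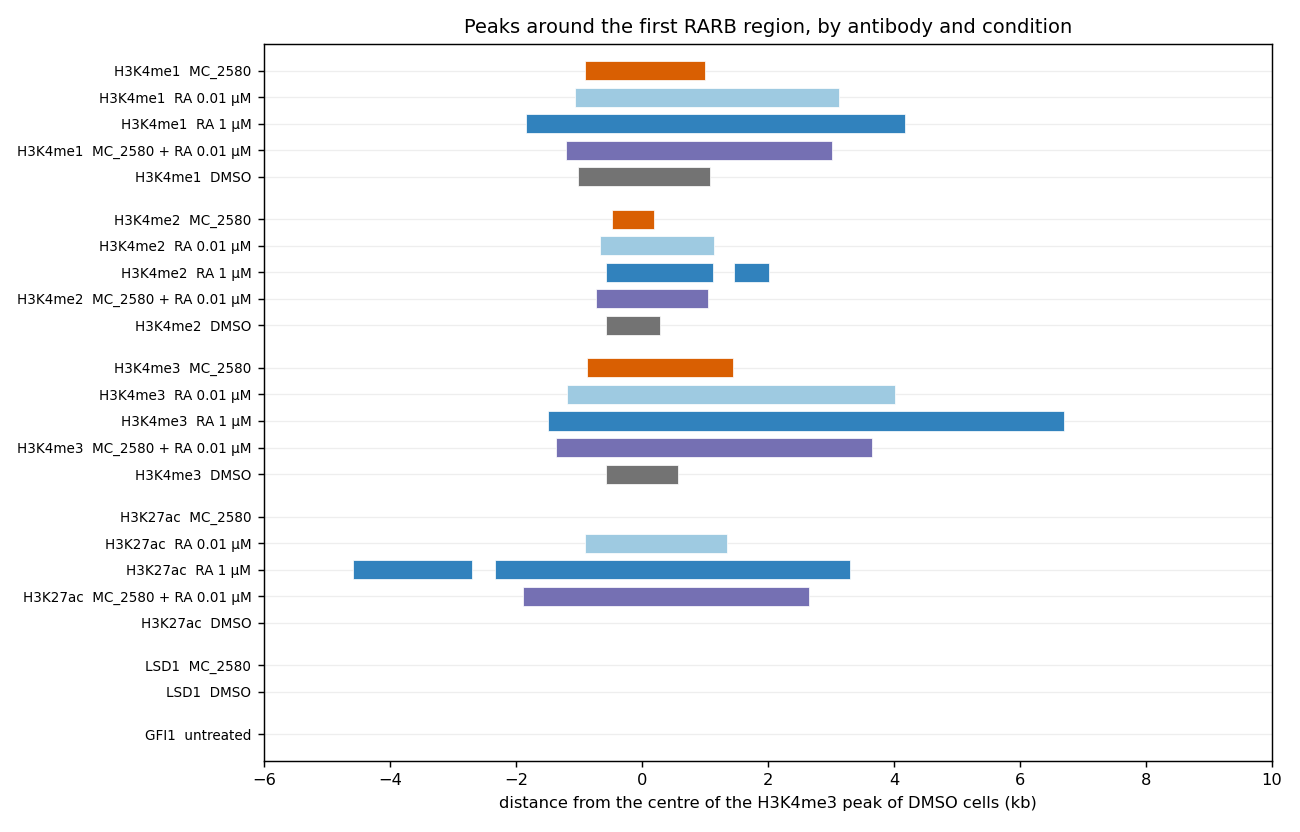
Peaks around the first RARB region (bars), with the x axis in kb from the centre of the H3K4me3 peak of DMSO cells and 1 row per antibody and condition. The H3K27ac rows of MC_2580 and DMSO are empty while the RA-containing rows hold peaks of 2252, 5625 and 4539 bases. The RA 1 µM row also holds a separate H3K27ac peak of 1898 bases, chr3:25439885-25441782. The LSD1 and GFI1 rows are empty.

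Towards the other end of the RARB window the conditions fell in another order, at a place chosen after its values were seen. At chr3:25596664-25603794 H3K27ac covered 4914 bases with MC_2580 and 7115 in the combination (chr3:25596680-25603794, the widest H3K27ac peak of the window), against 1540 in DMSO, and had no peak with RA alone at 0.01 µM or 1 µM. H3K4me1 at chr3:25597699-25600003 covered 2305 bases with MC_2580, 1166 with RA 0.01 µM, 1151 with RA 1 µM and 1948 in the combination, and had no peak in DMSO. Of the 31 H3K4me1 regions of the 5 windows, 1 had this pattern (1.30% of all regions of the mark). The widest H3K4me1 peak of the window lay further on, at chr3:25617951-25623969 in DMSO, 6019 bases long, and this region carried all 4 marks in all 5 conditions. H3K4me2 there covered 1567 bases with MC_2580, 821 with RA 0.01 µM, 391 with RA 1 µM and 963 in the combination, against 1585 in DMSO. H3K4me3 there was above DMSO in all 4 treatments, with 2740 to 2925 bases, against 1935. Of the window's bases under H3K4me2, 15.4% stood in DMSO and MC_2580 but no RA-containing list (2.49% of the whole lists). The 3 RA-containing lists alone held 19.2% (2.02%). The 1 GFI1 peak of the window, chr3:25564254-25564820 (567 bases), met no peak of any mark in any condition.

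Over the whole RARB window H3K4me3 covered 5.12 kb with MC_2580, 8.08 kb with RA 0.01 µM, 11.1 kb with RA 1 µM and 7.76 kb in the combination, against 3.08 kb in DMSO. The ratios of 1.66, 2.63, 3.62 and 2.52 compare with 1.57, 1.50, 1.33 and 1.32 for the whole lists. With a minimum score of 100 the first DMSO peak drops out, and these H3K4me3 ratios, 0.73, 1.39, 1.85 and 1.33 on the log2 scale, become 1.404, 2.06, 2.52 and 2.00. H3K27ac covered 7.92, 9.22, 11.9 and 14.6 kb in that order, against 6.13 kb. These H3K27ac ratios are 0.37, 0.59, 0.96 and 1.25 on the log2 scale. They became 1.66, -0.16, 2.10 and 2.53 once peaks scoring under 100 were left out, and 1.66, -0.16, 1.82 and 2.53 once the lists were cut to equal length. Of the 4 peaks with RA 0.01 µM 3 scored under 100, as did 2 of the 3 DMSO peaks.

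RARG encodes the third RAR, with a role in haematopoietic stem cells known from mice. Its H3K27ac ratio to DMSO was above that of the other 4 windows in each RA-containing condition, but with peaks scoring under 100 left out, or with lists of equal length, RARB stood above it with RA 1 µM and in the combination. H3K27ac covered 7.51 kb with MC_2580, 34.9 kb with RA 0.01 µM, 27.3 kb with RA 1 µM and 34.6 kb in the combination, against 12.0 kb in DMSO. The ratios of 0.62, 2.90, 2.27 and 2.88 compare with 0.75, 1.56, 1.12 and 1.17 for the whole lists. Most of these bases lay in 1 domain, chr12:51884004-51908536, which held 7515, 23811, 22757 and 23696 covered bases, against 9393 in DMSO. In the combination it was a single peak of 23696 bases, chr12:51884650-51908345.

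Within this domain the stretch chr12:51898993-51906393, 7401 bases long, was under H3K27ac in the 3 RA-containing conditions and in neither MC_2580 nor DMSO. It lay over LSD1 peaks of MC_2580 and DMSO and over a GFI1 peak, and it carried H3K4me1, H3K4me2 and H3K4me3 in all 5 conditions. A second RA-only stretch of 1570 bases, chr12:51906776-51908345, had none of the other marks or factors. A separate H3K27ac region at chr12:51918342-51923380 had peaks of 5039 bases with RA 0.01 µM, 2415 with RA 1 µM and 2444 in the combination and no peak with MC_2580 or in DMSO. It too carried no other mark and neither factor.

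H3K4me3 was longer in all 4 treatments at the first region of the RARG window, chr12:51883303-51891191. This region lies on the side of ITGB7 and was not assigned to a gene. It covered 4651 bases with MC_2580, 7081 with RA 0.01 µM, 6149 with RA 1 µM and 7889 in the combination, against 1277 in DMSO, or 3.64, 5.55, 4.82 and 6.18 times DMSO. An LSD1 peak lay over the region in both lists and a GFI1 peak at chr12:51886735-51887967. The DMSO H3K4me3 peak did not reach that GFI1 peak, while those of all 4 treatments did. The neighbouring H3K4me3 region, chr12:51896119-51903330, differed less, with 6581, 7012, 6784 and 7132 bases, against 4636 in DMSO.

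H3K4me1 of RARG stayed within 0.93 to 1.11 times DMSO in the 4 treatments, and in the combination its first peaks were joined into 1 of 27558 bases, chr12:51878051-51905608. H3K4me2 covered 9.52 kb with MC_2580, 11.2 kb with RA 0.01 µM, 11.1 kb with RA 1 µM and 14.1 kb in the combination, against 8.59 kb in DMSO. Its widest peak, chr12:51896142-51902860, was 6719 bases long in the combination.

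**Figure D4:**
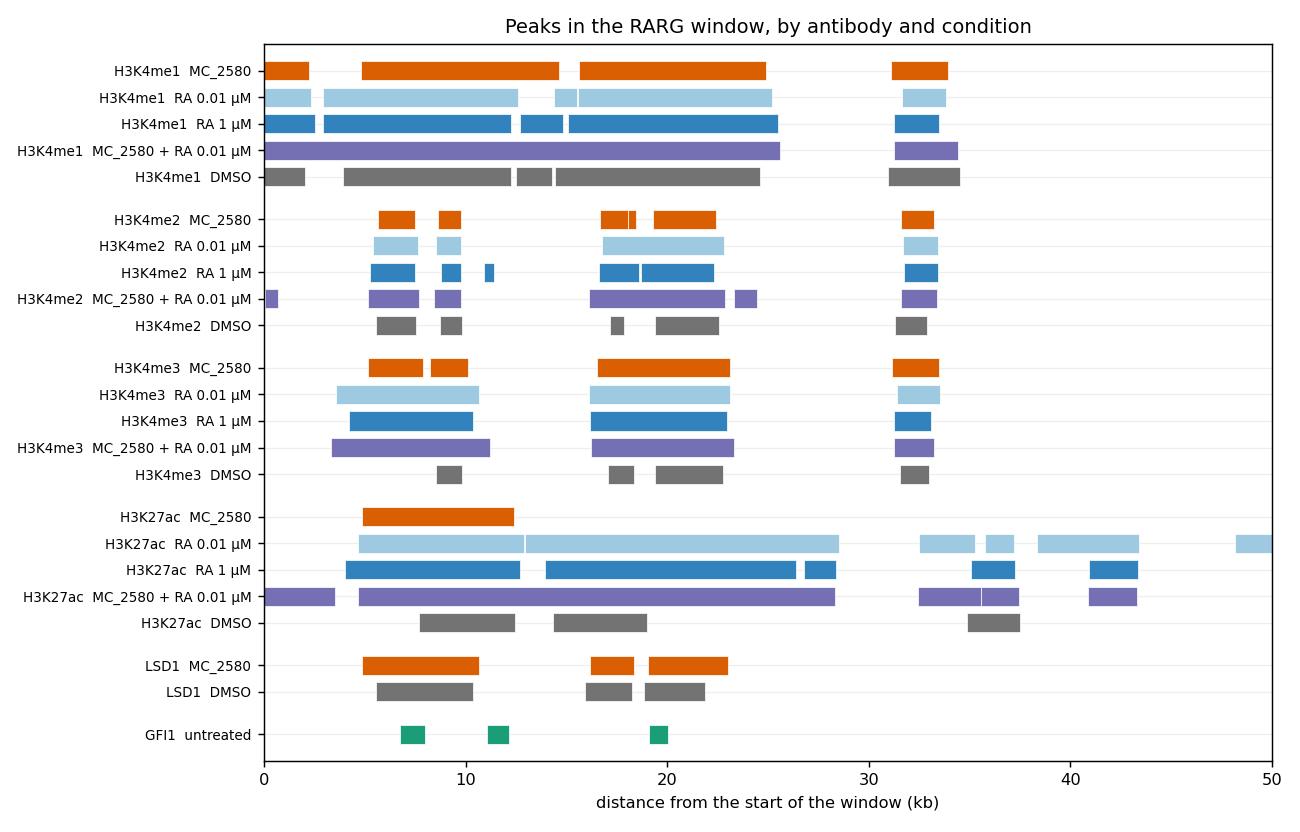
Peaks of the RARG window (bars), with the x axis in kb from the window's start and 1 row per antibody and condition. The H3K27ac rows with RA fill most of 1 domain, with 23811, 22757 and 23696 covered bases, against 7515 with MC_2580 and 9393 in DMSO, and LSD1 and GFI1 peaks lie under the same domain.

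RXRA encodes the shared heterodimer partner of the RARs. Its window held the most peaks, and its marks stood on different sides of DMSO. H3K4me1 covered 104 kb with MC_2580, 66.3 kb with RA 0.01 µM, 78.5 kb with RA 1 µM and 99.2 kb in the combination, against 104 kb in DMSO, in 8, 15, 20 and 12 peaks, against 9. The ratios of 1.00, 0.64, 0.76 and 0.95 compare with 0.99, 0.79, 0.88 and 1.04 for the whole lists. With RA alone the long H3K4me1 domain at chr9:136358596-136393873 was thus in more and shorter peaks, with 17019 bases in 5 peaks at 0.01 µM and 24105 in 8 peaks at 1 µM. It held 34783 bases in 1 peak with MC_2580 and 33997 in 4 peaks in the combination, against 34841 in 1 peak in DMSO. Shorter H3K4me1 peaks with RA alone were also found over the whole lists. Their median widths were 1953 bases at 0.01 µM and 1999 at 1 µM, against 2525 in DMSO. Those lists held 1.06 and 1.12 times as many peaks as DMSO. The widest H3K4me1 peak of the window, chr9:136394382-136429836, was 35455 bases long in the combination.

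H3K27ac of RXRA covered 94.3 kb with MC_2580, 138.9 kb with RA 0.01 µM, 99.5 kb with RA 1 µM and 109.6 kb in the combination, against 109.3 kb in DMSO. The list of RA 0.01 µM held a single H3K27ac peak of 95337 bases here, chr9:136358591-136453927, the second widest of its 55793 peaks. The same region held 74869 bases in 8 peaks with MC_2580, 83586 in 14 peaks with RA 1 µM and 87862 in 9 peaks in the combination, against 85144 in 7 peaks in DMSO. H3K4me1 and H3K27ac thus ran opposite ways with RA 0.01 µM in RXRA, at 0.64 and 1.27 times DMSO, as they did in the whole lists at 0.79 and 1.56 times.

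At the far end of the RXRA window a domain of H3K27ac was long in the RA-containing conditions. The region chr9:136484185-136496429, which runs past the window's end, held no peak with MC_2580, peaks of 12074 bases with RA 0.01 µM, 12145 with RA 1 µM and 11403 in the combination, against 975 bases in DMSO. These are 12.4, 12.5 and 11.7 times DMSO, and the DMSO peak scored 77.21. H3K4me1 there covered 2986 bases with MC_2580, 8432 with RA 0.01 µM, 5103 with RA 1 µM and 7282 in the combination, against 1588 in DMSO. H3K4me2 stayed between 1119 and 1396 bases in the 4 treatments, against 1128 in DMSO, and no H3K4me3, LSD1 or GFI1 peak lay there within the window. The centre of this H3K27ac region lies outside the window.

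H3K4me3 of RXRA covered most with MC_2580 alone. It covered 43.4 kb with MC_2580, 29.5 kb with RA 0.01 µM, 24.0 kb with RA 1 µM and 28.4 kb in the combination, against 25.7 kb in DMSO. The ratio of MC_2580 was 1.69, where its whole list had 1.57, and that of RA 1 µM was 0.93, where its whole list had 1.33. The peak chr9:136400814-136410817 was 10004 bases long with MC_2580, and the region held 6120 bases with RA 0.01 µM, 5496 with RA 1 µM and 6672 in the combination, against 6023 in DMSO. It lay over LSD1 peaks of both lists and over a GFI1 peak.

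Smaller RXRA regions followed a pattern across conditions without a common direction. H3K4me2 was called in every condition but DMSO at chr9:136381607-136383124, chr9:136399041-136400210 and chr9:136415972-136418411, with between 464 and 2246 covered bases. It was called in DMSO alone at chr9:136349033-136349438, chr9:136368061-136368324 and chr9:136391195-136391857, in peaks of 406, 264 and 663 bases. MC_2580 and DMSO shared H3K4me2 at chr9:136383950-136384362 and chr9:136386125-136386854 and H3K4me1 at chr9:136467595-136470227, with no peak in the RA-containing lists. H3K4me1 at chr9:136457509-136458979 (1471 bases) and H3K4me3 at chr9:136413198-136413935 (738 bases) were called in DMSO alone, with scores of 55.14 and 51.65. Over the 5 windows, 5 of 60 H3K4me2 regions were called in every condition but DMSO (2.71% of all regions of the mark). In DMSO alone stood 3 of 60 (5.18%), and in MC_2580 and DMSO only 3 of 60 (2.23%). For H3K4me1, 1 of 31 stood in DMSO alone (3.38%) and 1 of 31 in MC_2580 and DMSO only (0.954%). For H3K4me3, 1 of 24 stood in DMSO alone (0.551%). The widest H3K4me2 peak, chr9:136401095-136415114 in the combination, was 14020 bases long and the second widest of 45463 peaks in its list.

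**Figure D5:**
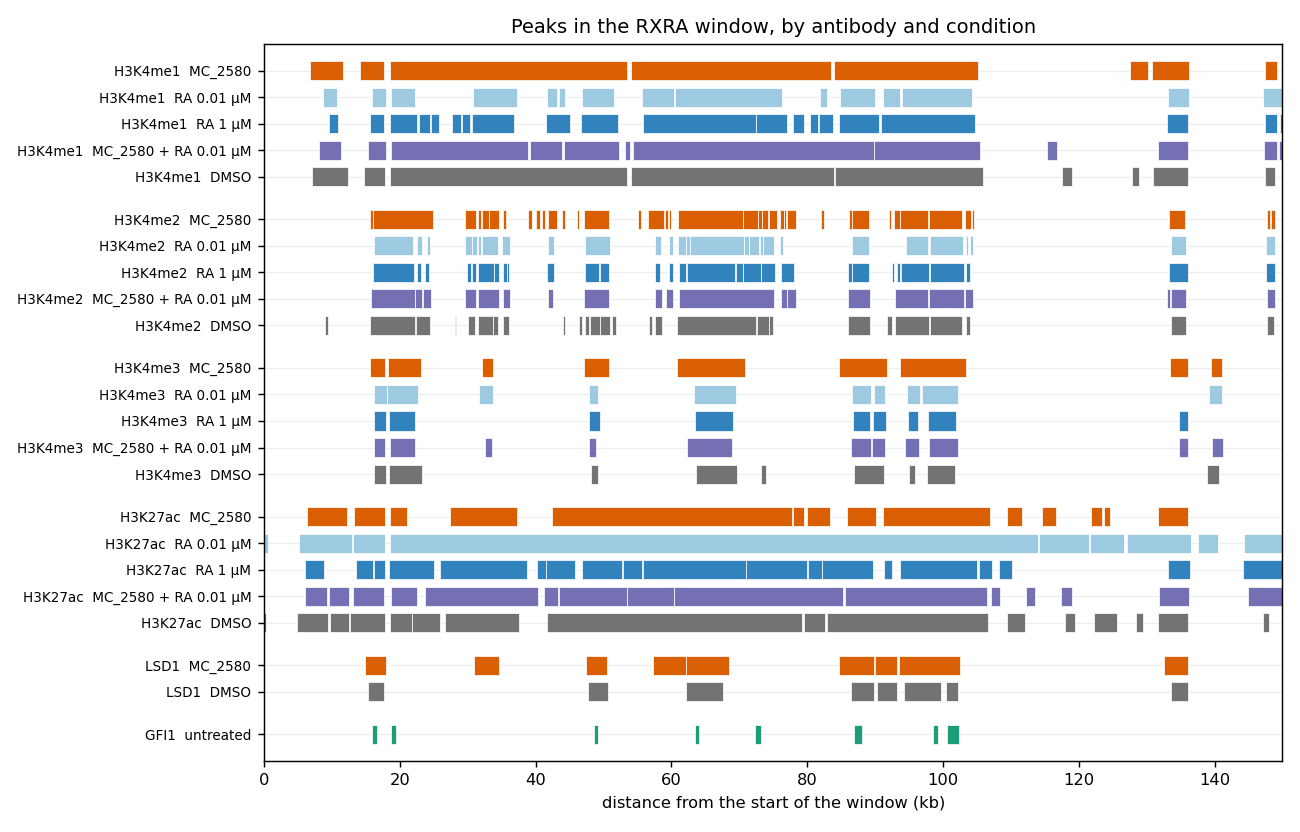
Peaks of the RXRA window (bars), with the x axis in kb from the window's start and 1 row per antibody and condition. H3K4me1 is split into 15 peaks with RA 0.01 µM and 20 with RA 1 µM, against 9 in DMSO. The whole H3K4me1 lists held 1.06 and 1.12 times as many peaks as DMSO. The H3K27ac domain at the right edge is present in the 3 RA-containing rows.

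PML encodes the organiser of nuclear bodies, the other partner of the fusion. H3K4me3 of its window covered 10.2 kb with MC_2580, 13.3 kb with RA 0.01 µM, 11.7 kb with RA 1 µM and 9.76 kb in the combination, against 7.68 kb in DMSO, ratios of 1.32, 1.73, 1.53 and 1.27. Its widest peak, chr15:72069954-72081810 with RA 0.01 µM, was 11857 bases long. H3K27ac covered 9.34 kb with MC_2580, 30.1 kb with RA 0.01 µM, 16.2 kb with RA 1 µM and 18.5 kb in the combination, against 17.2 kb in DMSO. These ratios of 0.54, 1.75, 0.94 and 1.08 compare with 0.75, 1.56, 1.12 and 1.17 for the whole lists. That of MC_2580, -0.88 on the log2 scale, became -1.64 with a minimum score of 100.

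A place between 51.2 and 57.5 kb into the PML window had 2 marks in the RA-containing conditions only. H3K27ac there (chr15:72111195-72117537) had a peak of 6343 bases with RA 0.01 µM, 2222 with RA 1 µM and 2318 in the combination, and none with MC_2580 or in DMSO. H3K4me1 at chr15:72110873-72112882 had peaks of 1516, 1600 and 1773 bases in the same 3 conditions, and none with MC_2580 or in DMSO. Neither H3K4me2 nor H3K4me3, LSD1 or GFI1 had a peak in the H3K4me1 region. It was the 1 region of the 5 windows where H3K4me1 was called in the RA-containing conditions only.

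Near the start of the PML window, H3K4me2 was called at chr15:72063930-72065053 with RA 0.01 µM (1094 bases), RA 1 µM (1014 bases) and the combination (398 bases), and not with MC_2580 or in DMSO. H3K4me1 and H3K27ac covered that place in all 5 conditions. H3K4me1 at chr15:72061125-72062979 was called with MC_2580 (1855 bases) and in the combination (930 bases) alone. Of the 31 H3K4me1 regions of the 5 windows, 1 had that pattern (1.79% of all regions of the mark). H3K4me2 at chr15:72133258-72133976 was called in every condition but DMSO, with 706 bases with MC_2580, 596 with RA 0.01 µM, 547 with RA 1 µM and 711 in the combination. The widest H3K4me1 and H3K4me2 peaks of the window were those of DMSO, chr15:72066903-72080686 (13784 bases) and chr15:72075183-72078379 (3197 bases). The widest H3K27ac peak was chr15:72067120-72075893 with RA 0.01 µM (8774 bases).

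LSD1 had 19 peaks in the windows with MC_2580 and 16 in DMSO. RXRA held 9 with MC_2580 and 8 in DMSO, RARA 6 and 5, RARG 3 and 3, PML 1 and 0, and RARB 0 and 0. All 16 DMSO peaks met a peak of MC_2580, so 0 of 16 were lost, which allows a share of up to 20.6% (7.79% of the whole list). With MC_2580, 3 of 19 peaks (15.8%, exact 95% interval 3.38% to 39.6%) met no DMSO peak, where the whole list had 41.4%. With 1 lowest score of 357 for both lists, chosen after the values were seen, 47.4% of those 19 met none, where the whole list had 63.0%. LSD1 covered 77.8 kb of the windows with MC_2580, against 52.1 kb in DMSO, 1.50 times as much, where the whole lists gave 1.92 times. RXRA was at 1.55 times, RARA at 1.48 times and RARG at 1.17 times. With 1 lowest score for both lists the 5 windows were at 1.99 times, where the whole lists gave 2.79 times. The RARA ratio, 0.57 on the log2 scale, was then 1.70, and with lists of equal length it was -0.27.

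The LSD1 peaks found with MC_2580 but not in DMSO were chr17:35746711-35749042 in RARA, chr9:136370985-136374608 in RXRA and chr15:72073316-72075399 in PML. They scored 495, 461 and 382, which 74.1%, 79.6% and 94.1% of that list reached. The strongest LSD1 peaks lay in RXRA at chr9:136402181-136408528 with MC_2580 (score 3100, 6348 bases) and chr9:136402112-136407599 in DMSO (score 2459, 5488 bases). The widest per gene were chr9:136433569-136442480 in RXRA (8912 bases), chr17:35726613-35734970 in RARA (8358 bases) and chr12:51884849-51890669 in RARG (5821 bases), all with MC_2580. In DMSO cells, all 16 LSD1 peaks lay on H3K4me1, H3K4me2 and H3K27ac peaks of the same condition and 14 on H3K4me3. Over the whole DMSO list these shares were 95.8%, 78.8%, 78.6% and 61.6%.

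GFI1, mapped in untreated cells, had 20 peaks: 8 in RXRA, 7 in RARA, 3 in RARG and 1 each in RARB and PML. Of these 20, 12 lay on an LSD1 peak of DMSO (60%, exact 95% interval 36.1% to 80.9%; 30.0% of the whole GFI1 list). RXRA held 6 of the 12, RARA 4 and RARG 2, while the GFI1 peaks of RARB and PML met no LSD1 peak of DMSO. With at least 50% overlap of both peaks the share was 5% (exact 95% interval 0.127% to 24.9%), where the whole GFI1 list had 9.58%. With a minimum score of 100 it was 5 of 8 peaks, or 62.5% (24.5% to 91.5%), where the whole list had 49.7%. The whole-list share lay inside the interval under both of these. With peaks joined within 1 kb it lay outside. There 11 of 19 GFI1 peaks lay on LSD1 of DMSO (57.9%, 33.5% to 79.7%), where the whole list had 29.1%. Cutting lists to equal length left both of the lists compared unchanged. GFI1 peaks had a median width of 752 bases in the whole list, against 2124 for LSD1 of DMSO. On LSD1 peaks of MC_2580 lay 13 of the 20, where the whole GFI1 list had 37.7%.

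The strongest GFI1 peaks were chr17:35735171-35737071 in RARA (score 706, 1901 bases) and chr9:136440589-136442369 in RXRA (score 403, 1781 bases), within the top 1.61% and 4.15% of the list. Both met LSD1 of both lists and all 4 marks in all 5 conditions. The RARA peak met LSD1 only at its downstream edge, where the LSD1 peaks began at chr17:35737049 in DMSO and chr17:35736982 with MC_2580. In RARG the GFI1 peak at chr12:51899078-51900049 met an H3K27ac peak with RA 0.01 µM, RA 1 µM and the combination, and none with MC_2580 or in DMSO. In DMSO this is a difference at a boundary, since a DMSO H3K27ac peak ends just short of the GFI1 peak, where the RA-only stretch begins at chr12:51898993. Of the 20 GFI1 peaks, 19 lay on H3K4me1 of DMSO (58.5% of the whole list), 17 on H3K27ac (41.7%), 16 on H3K4me2 (36.0%) and 12 on H3K4me3 (30.2%). GFI1 was mapped in untreated cells, so whether its binding differed with RA or MC_2580 was not tested.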

How the data were processed

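The series has 25 samples, of which 23 have a peak list and 2 are inputs without one. The lists hold 1 score per called peak, deposited by the authors as the peak caller gave it, with positions on hg18. Bowtie 1.0.1, MACS 1.4.1, CASAVA 1.8, bcl2fastq 2 and FastQC 0.11.5 and 0.10.0 are named per the submitters' processing notes, without role or order. Read depth is unknown. The LSD1 lists hold 18822 of 72074 numbered peaks (MC_2580) and 12562 of 50877 (DMSO).

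Positions were written 1-based, and negative starts were set to 0. Peaks met when they shared at least 1 base. Covered bases were cut to the window, while peak and region lengths were not. Regions are overlapping peaks of the 5 lists of a mark, merged. RA-only stretches under 1000 bases were not listed. With 1 library per antibody and condition there was no test, and the intervals are exact (Clopper-Pearson) at 95% and cover counting error only. The regions named were the widest peak of each mark and those called only in the RA-containing conditions, only in DMSO, in all but DMSO, or only in the MC_2580-containing conditions, with their reverses. Further places named for their length, the base-level share, the length rule and the single LSD1 minimum were chosen after values were seen. The genes and rules were chosen with earlier results of these data known. Alternatives were a minimum score of 100, 50% reciprocal overlap, joining within 1 kb, lists of equal length and peak centre in the window. Other retinoid pathway genes and cell markers were not used here, since no hg18 gene models were used. Python 3.11.15, NumPy 2.4.6, SciPy 1.17.1 and Matplotlib 3.10.9 were used, and the code was tested on simulated lists.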

Additional observations from a re-analysis of the deposited data

How the results depend on the processing

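The 17 covered-base ratios and 4 RA-only base shares of the 5 windows together stayed within 1.5-fold of their values under a minimum score of 100, equal list lengths, joining within 1 kb and the centre rule. Of 83 single-gene covered ratios, 13 moved and 1 reversed with the minimum score, and 4 moved and 1 reversed with equal lengths. The 13 were H3K4me3 of RARB and of RARG in all 4 treatments (RARG at log2 ratios of 1.49, 1.75, 1.62 and 1.82), H3K27ac of RARB in the 3 treatments other than RA 0.01 µM, H3K27ac of PML with MC_2580 and H3K4me2 of RARB with RA 1 µM (-0.52). The 4 were H3K27ac of RARB in the 3 treatments other than RA 0.01 µM and LSD1 of RARA. The reversed one was H3K27ac of RARB with RA 0.01 µM, at a log2 ratio of -0.16 under both. Only ratios at least 1.5-fold from DMSO could count as reversed. LSD1 of RARA, a smaller ratio, changed sign with equal lengths and counts as moved. Gained and lost shares depend on what counts as overlap, in the windows and in the whole lists, whose shares under the same rule follow in brackets. The whole-list share lay inside the window's exact interval for 24 of 34 shares with 50% reciprocal overlap, 33 with the minimum score, 34 with joining and 34 with equal lengths. With 50% reciprocal overlap, shares gained with MC_2580, RA 0.01 µM, RA 1 µM and the combination were 29.0%, 64.4%, 55.3% and 51.3% for H3K4me1 (16.3%, 36.6%, 33.1% and 34.9%), 55.1%, 47.3%, 43.8% and 50% for H3K4me2 (39.2%, 30.6%, 42.6% and 37.5%), and 37.5%, 69.7%, 64.9% and 55.9% for H3K27ac (25.3%, 69.9%, 48.0% and 53.4%). For H3K4me3 45.8% were gained with RA 0.01 µM (36.5%). Shares lost in the same order were 39.2%, 43.1%, 29.4% and 51.0% for H3K4me2 (24.1%, 32.8%, 34.9% and 30.1%) and 33.3%, 45.8%, 33.3% and 33.3% for H3K4me3 (18.5%, 18.8%, 16.9% and 16.8%). H3K4me1 lost 26.7% with MC_2580, 46.7% with RA 0.01 µM and 36.7% in the combination (21.3%, 33.1% and 17.7%), and H3K27ac 68.8%, 59.4% and 53.1% with RA 0.01 µM, RA 1 µM and the combination (48.8%, 38.5% and 41.4%). GFI1 on LSD1 was 5% (9.58%). With the minimum score, lost shares were 0% for H3K4me3 in all 4 treatments (0.501%, 1.34%, 2.75% and 3.11%), and for H3K4me2 7.89% with RA 0.01 µM (12.1%) and 2.63% in the combination (7.34%). Both counts of long regions were then 0, since their DMSO peaks scored under 100. With equal lengths, 0% of LSD1 (24.2%) and 16.7% of H3K4me2 peaks (11.8%) were gained with MC_2580, 26.1% of H3K27ac peaks (20.7%) were lost with MC_2580, and the long H3K27ac count was 0, as it was with the centre rule. Joining gave 13.8% of H3K4me2 peaks gained with MC_2580 (19.5%) and 1 RA-only H3K4me2 region. A shared LSD1 minimum gave 47.4% gained (63.0%). Other than for the minimum score, the cause was not tested. Reciprocal overlap gives no value for covered bases or merged regions. No paired analysis was possible because each antibody and condition had 1 library, and for the same reason no replicate could be left out.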
